A study of Rattus norvegicus with 8 samples.

Results

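The Hippo pathway genes examined here were 10 regulators and targets of the transcriptional coactivator YAP, chosen by symbol as Frmd6, Ccn1, Ccn2, Amotl1, Amotl2, Lats2, Ankrd1, Tead1, Wwc1 and Ajuba. Of these, 8 were measured by a probe set annotated to that gene alone, out of 14511 genes compared in all. Amotl1 and Wwc1 had no probe set with that name, so their expression was not analysed here. For a gene with several probe sets, that of the highest mean signal stood for the gene. Frmd6 was the only measured member with more than 1.

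The 8 arrays carried RNA from perfused livers of male Wistar rats aged 6 to 10 weeks. The perfusate was Krebs-Henseleit buffer, a salt solution buffered with bicarbonate. In 4 samples it was hypoosmotic (225 mosm/L), which makes hepatocytes swell, and in the other 4 it was normoosmotic (305 mosm/L), and all 8 samples belong to the 180 min time point. No genotype or drug is named in the labels, and the whole organ was homogenised, so hepatocytes and all other liver cells are mixed. The labels do not tie the replicates to separate animals, so a p-value here reflects only the scatter among these 8 samples, possibly technical in origin. Hypoosmotic replicate 3 stood apart on the second principal component over all genes, at 28.5, where the other 7 arrays lay between -15.3 and 6.60, and values without it are given beside each call that it changed.

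The Hippo pathway is a kinase cascade that restrains growth. The kinases STK3 and STK4, with the scaffold SAV1, activate the kinases LATS1 and LATS2 and their MOB1 cofactors, and LATS then phosphorylates YAP and its relative TAZ and keeps them out of the nucleus. When the cascade is quiet, YAP enters the nucleus, binds TEAD transcription factors and drives genes such as CCN1 and CCN2. In liver the pathway is known for its control of organ size, and YAP activity responds to cell shape, adhesion and the actin cytoskeleton.

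TEAD factors bind a short element whose core is written GGAATG, or CATTCC when read on the opposite strand. Stretches upstream of the start site are shown for the measured members with an entry in the RefSeq table of build GRCr8, because they place this element beside the array values that follow. Each is written in the direction of the gene, and capitals mark GGAATG or CATTCC. For Frmd6 and Amotl2, whose windows reach into the annotated span of the gene, a shorter stretch is shown. The search covered the 250 bases before the start site on both strands, and no matches overlapped. Ankrd1, Lats2 and Tead1 had no entry. Amotl1 and Wwc1, which have no array values, had entries whose windows hold no match, and these are not shown.
Ccn1 (chr2:237225690-237225939, minus strand): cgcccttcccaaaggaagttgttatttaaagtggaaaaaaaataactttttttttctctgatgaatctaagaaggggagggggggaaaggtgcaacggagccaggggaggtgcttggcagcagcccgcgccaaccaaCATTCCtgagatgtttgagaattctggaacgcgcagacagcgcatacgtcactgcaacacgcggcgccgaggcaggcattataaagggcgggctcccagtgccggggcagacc
Ccn2 (chr1:22624615-22624864, minus strand): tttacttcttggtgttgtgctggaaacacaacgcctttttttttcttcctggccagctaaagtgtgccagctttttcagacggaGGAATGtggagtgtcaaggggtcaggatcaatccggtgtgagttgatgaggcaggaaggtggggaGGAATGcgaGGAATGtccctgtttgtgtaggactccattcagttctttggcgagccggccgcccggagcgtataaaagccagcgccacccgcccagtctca
Ajuba (chr15:32000043-32000292, minus strand): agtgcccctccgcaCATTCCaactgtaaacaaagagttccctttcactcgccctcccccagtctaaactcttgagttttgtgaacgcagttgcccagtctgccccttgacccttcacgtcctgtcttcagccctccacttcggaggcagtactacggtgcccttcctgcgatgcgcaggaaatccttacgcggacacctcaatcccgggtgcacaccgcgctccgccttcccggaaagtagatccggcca
Frmd6 (chr6:95081736-95081957, plus strand): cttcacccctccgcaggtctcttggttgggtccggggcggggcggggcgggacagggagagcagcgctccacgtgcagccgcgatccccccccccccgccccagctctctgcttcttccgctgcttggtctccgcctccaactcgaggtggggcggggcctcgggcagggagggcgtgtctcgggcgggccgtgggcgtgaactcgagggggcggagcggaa
Amotl2 (chr8:112182538-112182567, plus strand, 30 bases around the match): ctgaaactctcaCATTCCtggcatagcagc

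Of the 5 measured members with a window, 4 held the element, and of all 7 members with a window the same 4 did. Ccn2 had 3 copies, whose first bases lay 166, 101 and 92 bases before the start site. Ccn1 had 1 copy at 113 bases, Amotl2 1 at 76 bases and Ajuba 1 at 236 bases before it. Frmd6 had no match, which says only that these letters are not in its window. Among all measured genes with a window, 10.8% held the element, and a match describes letters and not a bound site. Of the 1288 measured genes with a match, 6.37% differed between the buffers, and of the 10686 without one 7.33% did. Of the measured list genes with a window, the element was held by 3 of 7 in the kinase core, 6 of 17 upstream regulators, 1 of 3 TEAD and VGLL genes, 5 of 12 YAP and TEAD targets and 9 of 14 SRF targets, members included. Mob1b, Rassf1 and Fhl2 were those that passed the test described below. A gene with several windows counted if any of them held the element. Rassf1 had it only in the second of 2 windows, which lies inside its annotated span, and Fhl2 in 1 of 2.

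Among the 8 measured members, 1 fell in hypoosmotic livers, 0 rose and 7 did not pass the test (limma, Benjamini-Hochberg adjusted p under 0.05 over all genes). The member that fell was Frmd6. Of all genes 7.07% passed, made up of 4.62% that fell and 2.45% that rose, and 1 call among 8 genes is not set apart from that background. At an unadjusted p under 0.05 there were 3 members, Frmd6, Lats2 and Ajuba. Such p-values were common, as 20.5% of all genes had an unadjusted p smaller than 0.0489 (limma). The difference was negative for 5 members and positive for 3, with a median of -0.25 on the log2 scale against 0.015 over all genes. The groups did not overlap for 1 member, Frmd6, which was lower in hypoosmotic livers, and for 0 members with higher hypoosmotic values. Over all genes 13.5% did not overlap, 8.21% as lower and 5.33% as higher in hypoosmotic livers. Without hypoosmotic replicate 4 the count of falls was 2, as Lats2 then passed, and it was 0 without hypoosmotic replicate 1 or 2 and without normoosmotic replicate 3 or 4.

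**Figure D1:**
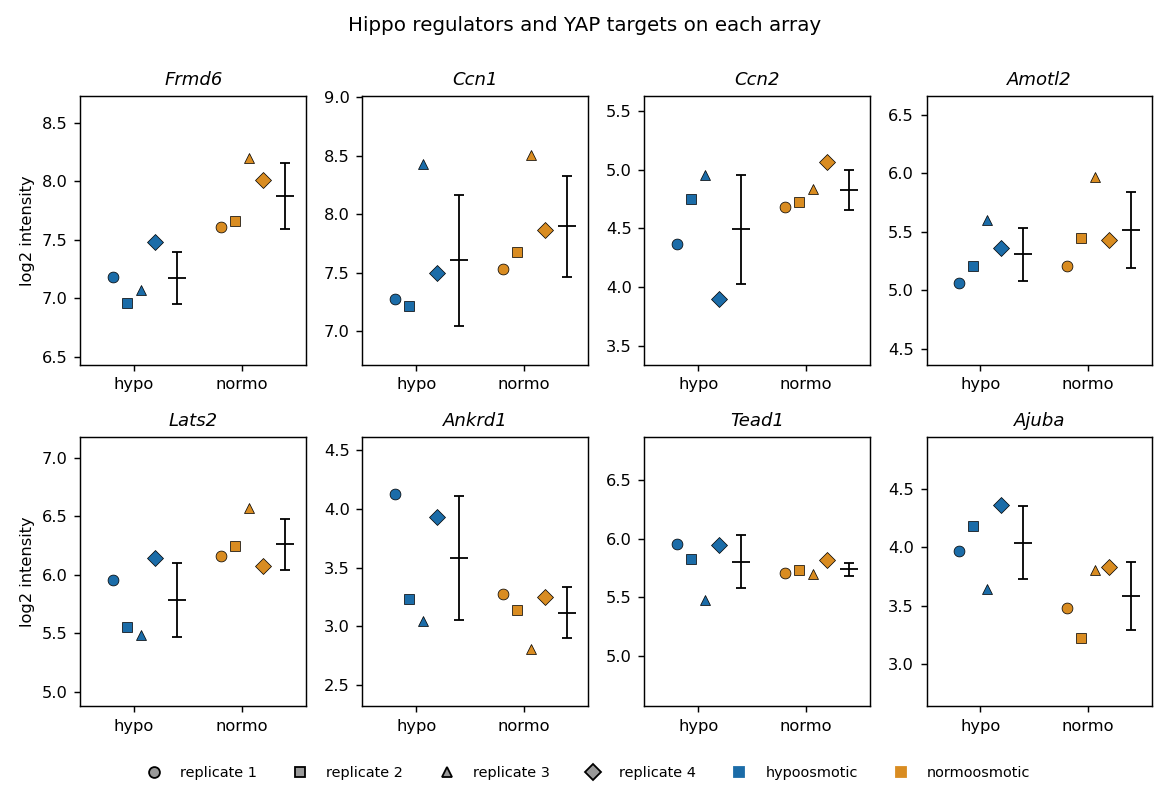
Log2 intensity (vertical axis, 2.3 log2 units in every panel) of the 8 measured members on each array, hypoosmotic at left and normoosmotic at right. Symbols stand for replicate numbers, and bars to the right of each group give mean and SD (n = 4). Frmd6 is the only panel in which the groups do not overlap.

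Frmd6 encodes a membrane protein with a FERM domain, a relative of Expanded, which activates the Hippo cascade in Drosophila. Its log2 intensities were 7.18, 6.96, 7.07 and 7.48 in hypoosmotic livers, against 7.61, 7.66, 8.20 and 8.01 in normoosmotic livers. All 4 hypoosmotic values lay below all 4 normoosmotic values. The means were 7.17 ± 0.22 in hypoosmotic livers and 7.87 ± 0.28 in normoosmotic livers (SD, n = 4 each). The change was -0.70 ± 0.16 (SE, 95% interval -1.05 to -0.35) on the log2 scale, or 1.62-fold lower, with an adjusted p of 0.0249 (limma). Its unadjusted p ranked 595th of 14511. The adjusted p was over the threshold without hypoosmotic replicate 1 (0.0557) or 2 (0.0723) and without normoosmotic replicate 3 (0.0726) or 4 (0.0708), while the change stayed between -0.80 and -0.59. Without hypoosmotic replicate 3 the adjusted p was 0.0494.

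Frmd6 has another probe set, with a lower mean signal, read as an alternative chosen after seeing the data. It gave 6.36, 6.48, 6.31 and 6.59 in hypoosmotic livers, against 7.09, 7.09, 7.54 and 7.20 in normoosmotic livers. These groups did not overlap either, and the other probe set differed by -0.80 ± 0.13 (SE), or 1.74-fold lower. Adjusted over all 27596 probe sets, of which 4.05% passed, its p was 0.00872 (limma). Leaving out each array in turn gave adjusted p-values from 0.0124 to 0.0282. Both probe sets were read on the same arrays, so they are not separate samples. In bulk tissue, fewer cells of a type and less RNA per cell cannot be told apart.

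The genes whose values over the 8 arrays were most like those of Frmd6 were Otud5, a deubiquitinase, Zfp280b, a zinc finger gene, and Golph3, a Golgi phosphoprotein. Pearson correlations were 0.99, 0.98 and 0.97, as the highest 3 of all genes, and are given as a description over 8 arrays. Of the 3, Zfp280b fell, by 0.94 on the log2 scale (limma adjusted p = 0.0183). Otud5 had a change of -0.30 (adjusted p = 0.102) and Golph3 one of -0.22 (adjusted p = 0.231).

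Lats2 encodes a kinase that inactivates YAP and is itself a YAP target. Its log2 intensities were 5.95, 5.55, 5.48 and 6.14 in hypoosmotic livers, against 6.16, 6.24, 6.57 and 6.07 in normoosmotic livers. All hypoosmotic arrays but replicate 4 lay below every normoosmotic one, and replicate 4 lay within the normoosmotic range. The difference was -0.48 ± 0.17 (SE, 95% interval -0.84 to -0.12), with an adjusted p of 0.116 (limma). Without hypoosmotic replicate 4 the difference was -0.60 and the adjusted p 0.0481, and over the 8 fits without 1 array the adjusted p went as high as 0.281.

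Amotl2, an angiomotin relative that binds YAP at cell junctions, is likewise both a regulator and a target. Its values were 5.06, 5.21, 5.60 and 5.36 in hypoosmotic livers, against 5.21, 5.45, 5.97 and 5.43 in normoosmotic livers. The groups overlapped, and replicate 3 was the highest in each. The difference was -0.21 ± 0.17 (SE, 95% interval -0.58 to 0.16, adjusted p = 0.577, limma), and it was -0.06 without normoosmotic replicate 3.

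Ajuba encodes a LIM domain protein that binds LATS kinases and inhibits them. Its values were 3.97, 4.18, 3.64 and 4.36 in hypoosmotic livers, against 3.48, 3.22, 3.80 and 3.83 in normoosmotic livers. All hypoosmotic arrays but replicate 3 lay above every normoosmotic one, and replicate 3 lay within the normoosmotic range. The difference was 0.46 ± 0.18 (SE, 95% interval 0.06 to 0.85), with an adjusted p of 0.166 (limma), and of 0.0629 without hypoosmotic replicate 3.

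Ccn1 encodes a secreted matricellular protein and is a much used readout of YAP. Its values were 7.28, 7.22, 8.43 and 7.50 in hypoosmotic livers, against 7.53, 7.68, 8.51 and 7.87 in normoosmotic livers. Replicate 3 stood highest in each group, and the other hypoosmotic arrays lay below every normoosmotic array. The difference was -0.29 ± 0.27 (SE, 95% interval -0.89 to 0.31), with an adjusted p of 0.644 (limma). Without hypoosmotic replicate 3 the difference was -0.56 (adjusted p = 0.145), and without normoosmotic replicate 3 it was -0.09 (adjusted p = 0.929). The interval spans a fall larger than the change of Frmd6 as well as a rise.

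Ccn2, connective tissue growth factor, belongs to the same secreted family. Its values were 4.37, 4.75, 4.96 and 3.90 in hypoosmotic livers, against 4.68, 4.73, 4.84 and 5.07 in normoosmotic livers. Hypoosmotic replicates 1 and 4 lay below every normoosmotic array and the others within their range. The difference was -0.34 ± 0.20 (SE, 95% interval -0.78 to 0.11, adjusted p = 0.406, limma), and it was -0.14 without hypoosmotic replicate 4.

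Ankrd1, an ankyrin repeat protein of muscle and stressed cells, is a YAP target that had the opposite sign to Ccn1 and Ccn2. Its values were 4.13, 3.23, 3.04 and 3.93 in hypoosmotic livers, against 3.27, 3.14, 2.80 and 3.25 in normoosmotic livers. Hypoosmotic replicates 1 and 4 stood above every normoosmotic array. The difference was 0.47 ± 0.23 (SE, 95% interval -0.03 to 0.97, adjusted p = 0.279, limma), 0.65 without hypoosmotic replicate 3 (adjusted p = 0.0937) and 0.285 without hypoosmotic replicate 1 (adjusted p = 0.542). Its normoosmotic mean of 3.12 lay near 3.07, the 95th percentile of 1105 odorant receptor genes, taken here as the level of near-background signal.

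Tead1, a DNA-binding partner of YAP, had values of 5.96, 5.83, 5.48 and 5.95 in hypoosmotic livers, against 5.71, 5.73, 5.70 and 5.82 in normoosmotic livers. All hypoosmotic arrays but replicate 3 lay above every normoosmotic one, and replicate 3 lay below every one. The difference was 0.07 ± 0.12 (SE, adjusted p = 0.843, limma), and its 95% interval of -0.20 to 0.33 was the narrowest among the members. Without hypoosmotic replicate 3 the difference was 0.17 (adjusted p = 0.384).

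The members did not order the arrays in one way. Hypoosmotic replicate 3 was the highest of its group for Ccn1, Ccn2 and Amotl2 and the lowest for Lats2, Ankrd1, Tead1 and Ajuba. Normoosmotic replicate 3 was the highest of its group for Frmd6, Ccn1, Amotl2 and Lats2.

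**Figure D2:**
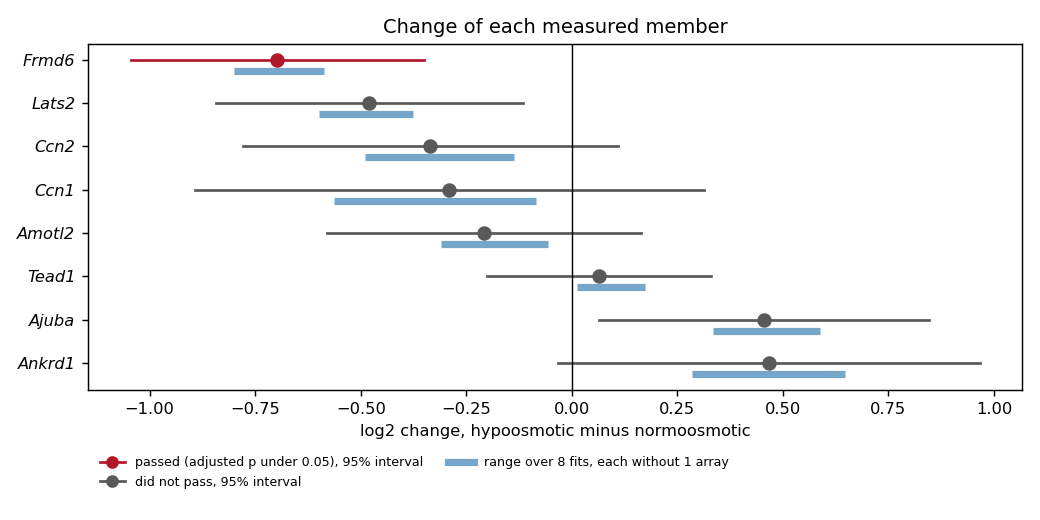
Change of each measured member (horizontal axis, log2, hypoosmotic minus normoosmotic) with its 95% interval from limma. Thick bars give the range over the 8 fits that each left out 1 array. No thick bar crosses 0, and Frmd6, at -0.70, is the only member that passed.

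Genes of the kinase core were compared beside the members, from a list of 10 of which 9 were measured. In hypoosmotic livers 2 of the 9 fell, 0 rose and 7 did not pass, where 4.62% of all genes fell and 2.45% rose. The list median was -0.13, against 0.015 over all genes. The falls were those of Mob1a and Mob1b, which encode the cofactors that LATS kinases need for full activity. Mob1a was at 6.02, 6.36, 5.88 and 5.90 in hypoosmotic livers, against 7.11, 6.85, 6.75 and 6.95 in normoosmotic livers. The groups were separated, and the change was -0.88 ± 0.13 (SE), or 1.83-fold lower (limma adjusted p = 0.00533). Leaving out each array in turn gave adjusted p-values from 0.0106 to 0.0198.

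Mob1b was at 6.35, 6.20, 6.19 and 6.62 in hypoosmotic livers, against 6.92, 6.84, 6.98 and 6.71 in normoosmotic livers. It fell by 0.52 ± 0.12 (SE) on the log2 scale, or 1.44-fold (limma adjusted p = 0.0272). It passed in 2 of the 8 fits without 1 array, with adjusted p-values from 0.0141 to 0.0853, of which the highest came without normoosmotic replicate 3. Without hypoosmotic replicate 3 it was 0.0546. The number of list genes that passed was 1 without hypoosmotic replicate 1, 2 or 3 or normoosmotic replicate 1, 2 or 3, and 3 without hypoosmotic replicate 4.

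Yap1 itself had 7.69, 7.53, 6.98 and 7.57 in hypoosmotic livers, against 7.42, 7.65, 7.78 and 7.57 in normoosmotic livers, and the groups overlapped. Its difference was -0.16 ± 0.15 (SE, 95% interval -0.50 to 0.18, adjusted p = 0.647, limma). Hypoosmotic replicate 3 was the lowest array, and without it the difference was -0.0083 (adjusted p = 0.981). Wwtr1, which encodes TAZ, had a difference of -0.13 ± 0.12 (95% interval -0.40 to 0.13, adjusted p = 0.627), and of -0.06 without normoosmotic replicate 3. Sav1, the scaffold of the upstream kinases, had one of 0.27 ± 0.13 (adjusted p = 0.272). Lats1 was not analysed here.

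Of 26 upstream regulators 19 were measured, members included. In hypoosmotic livers 5 fell, 0 rose and 14 did not pass, and 8 had an unadjusted p under 0.05, with differences of both signs. Of all genes 4.62% fell and 2.45% rose, and 20.5% had an unadjusted p smaller than 0.0489 (limma). The list median was -0.11, against 0.015 over all genes. This list and that of the kinase core were chosen with earlier results of these data known, so their counts are a description. Rassf1, a scaffold that binds the upstream kinases, was at 7.16, 7.07, 6.85 and 7.11 in hypoosmotic livers, against 7.98, 7.84, 8.42 and 8.06 in normoosmotic livers. With groups far apart, it was 2.04-fold lower, a log2 change of -1.03 ± 0.13 (SE, limma adjusted p = 0.00357), and it ranked 39th by p among all genes. Rassf1 passed in all 8 fits without 1 array (0.00682 to 0.0145).

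Taok1 and Taok2 encode TAO kinases, which phosphorylate the upstream kinases. Taok2 was at 5.27, 5.08, 5.18 and 5.42 in hypoosmotic livers, against 5.91, 5.84, 5.73 and 5.77 in normoosmotic livers, and fell by 0.57 ± 0.11 (SE, limma adjusted p = 0.0109). It passed in all 8 fits without 1 array (0.0105 to 0.0334). Taok1 was at 8.15, 7.83, 7.69 and 8.13 in hypoosmotic livers, against 8.41, 8.45, 8.54 and 8.46 in normoosmotic livers. It fell by 0.52 ± 0.12 (adjusted p = 0.0287) and passed in 2 of the 8 fits (0.0263 to 0.0865, highest without normoosmotic replicate 3, and 0.0519 without hypoosmotic replicate 3). Taok3, named after its value was seen, had a difference of 0.59 ± 0.18 (adjusted p = 0.0815).

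Strn3 encodes a striatin of the STRIPAK phosphatase complex, which opposes the upstream kinases. It was at 7.30, 7.12, 7.14 and 7.52 in hypoosmotic livers, against 7.78, 7.57, 7.99 and 7.73 in normoosmotic livers. It fell by 0.50 ± 0.13 (SE, limma adjusted p = 0.0396) and passed in 2 of the 8 fits without 1 array (0.0235 to 0.117, highest without normoosmotic replicate 3, and 0.0782 without hypoosmotic replicate 3). Quantile normalization of the deposited values (0.0580) or testing all probe sets together (0.0550) also ended the call. The fifth fall was that of Frmd6. Wwc2, a relative of Wwc1, had a difference of -0.21 ± 0.12 (adjusted p = 0.390). The count of falls in this list was 3 without hypoosmotic replicate 1 or 3 or normoosmotic replicate 1, and 2 without hypoosmotic replicate 2 or normoosmotic replicate 3 or 4.

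**Figure D3:**
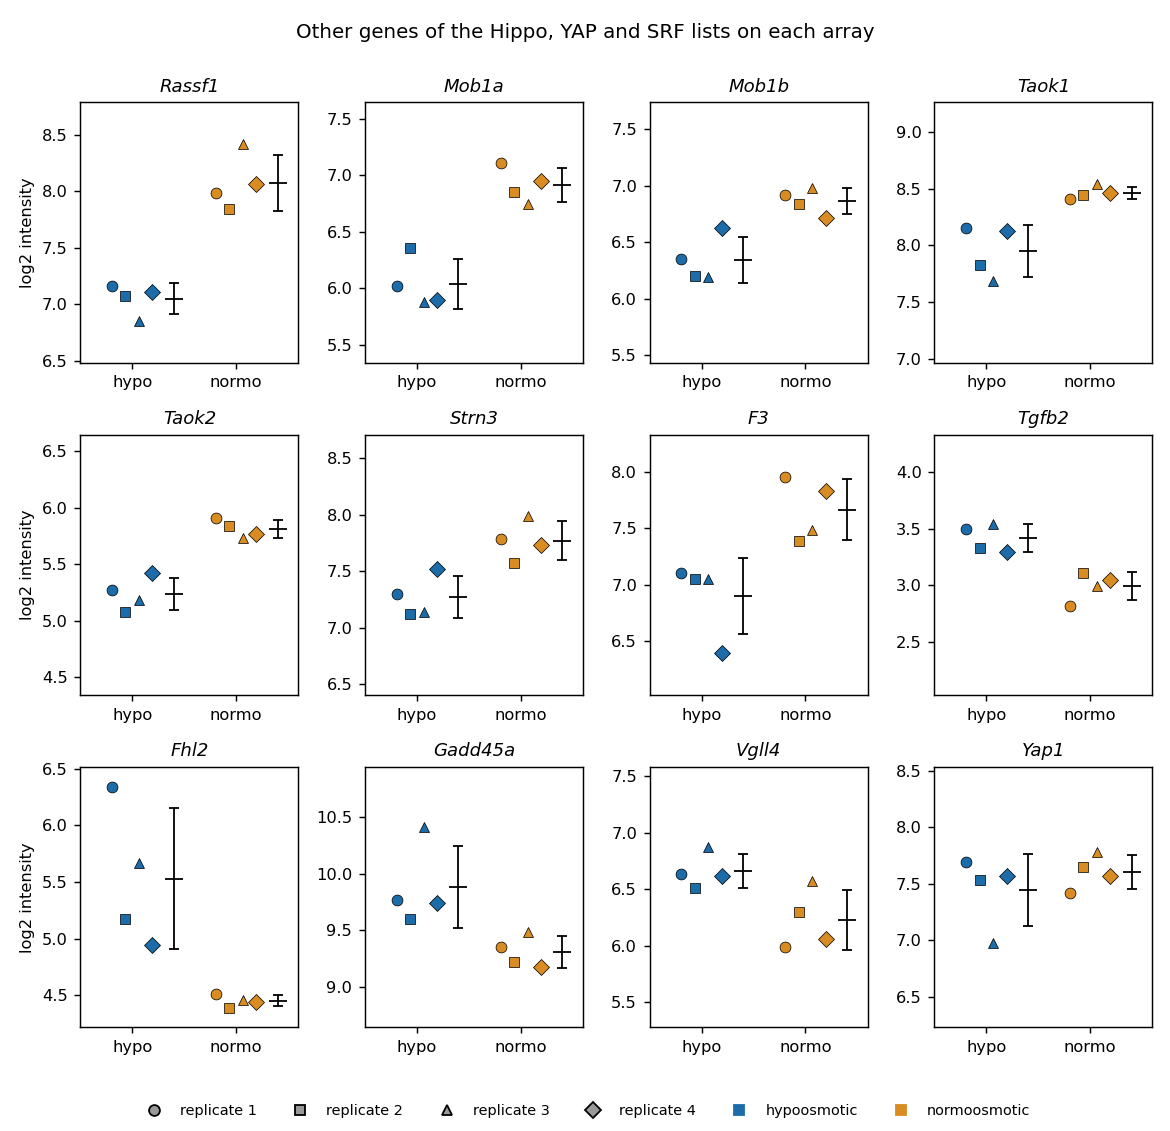
Log2 intensity (vertical axis, 2.3 log2 units in every panel) of 12 further genes of the lists on each array, hypoosmotic at left and normoosmotic at right, with mean and SD (n = 4). Rassf1, Mob1a, Mob1b, Taok1, Taok2, Strn3 and F3 fell, Tgfb2 and Fhl2 rose, and Gadd45a, Vgll4 and Yap1 did not pass.

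Of 8 TEAD factors and VGLL cofactors 5 were measured and 0 passed, while 2 had an unadjusted p under 0.05 (limma). Of all genes 7.07% passed, and 20.5% had an unadjusted p smaller than 0.0489. Vgll4 encodes a protein that competes with YAP for TEAD. It was at 6.64, 6.51, 6.87 and 6.62 in hypoosmotic livers, against 5.99, 6.30, 6.57 and 6.06 in normoosmotic livers, a difference of 0.43 ± 0.14 (SE, adjusted p = 0.0972). Tead2 had a difference of -0.38 ± 0.14 (adjusted p = 0.125) and Tead3 one of -0.18 ± 0.11 (adjusted p = 0.404). The groups of Tead2 did not overlap, as for 8.21% of all genes in that direction. Tead4 was not analysed here.

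A signature of 22 YAP and TEAD targets, which holds 5 of the measured members, had 16 measured genes. In hypoosmotic livers 1 rose, 1 fell and 14 did not pass, with 10 positive and 6 negative differences and a median of 0.11. Of all genes 2.45% rose and 4.62% fell, with a median of 0.015. F3, tissue factor, the starter of coagulation, was at 7.10, 7.05, 7.05 and 6.40 in hypoosmotic livers, against 7.95, 7.39, 7.48 and 7.83 in normoosmotic livers. It fell by 0.76 ± 0.18 (SE, limma adjusted p = 0.0287) and passed in 4 of the 8 fits without 1 array (0.0358 to 0.0824, highest without normoosmotic replicate 4).

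Tgfb2, a transforming growth factor, was at 3.50, 3.33, 3.54 and 3.29 in hypoosmotic livers, against 2.82, 3.11, 2.99 and 3.05 in normoosmotic livers. It rose by 0.42 ± 0.11 (SE, limma adjusted p = 0.0393), with a normoosmotic mean below the near-background level of 3.07, so its fold is not exact. It passed in 1 of the 8 fits without 1 array (0.0393 to 0.105, highest without normoosmotic replicate 1, and 0.0771 without hypoosmotic replicate 3). It did not pass after median centring (0.0603) or a further quantile normalization (0.0551). Gadd45a, a stress-induced growth arrest gene, had groups that did not overlap and a difference of 0.57 ± 0.17 (adjusted p = 0.0640). The number of target genes that passed was 1 without hypoosmotic replicate 1 or 3 or normoosmotic replicate 2, and 0 without hypoosmotic replicate 2 or normoosmotic replicate 1, 3 or 4.

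Ccn1, Ccn2 and Ankrd1 are also known targets of SRF, a factor that responds to actin through its MRTF cofactors. Of 21 SRF and MRTF targets 19 were measured, of which 1 rose, 0 fell and 18 did not pass, where 2.45% of all genes rose and 4.62% fell. The list median was 0.27, against 0.015 over all genes, with 14 positive differences. The rise was that of Fhl2, a LIM domain cofactor, at 6.34, 5.17, 5.67 and 4.94 in hypoosmotic livers, against 4.51, 4.39, 4.46 and 4.44 in normoosmotic livers. The hypoosmotic arrays were spread widely above a tight normoosmotic group. Fhl2 was 2.11-fold higher (log2 change 1.08 ± 0.24 SE, limma adjusted p = 0.0248) and passed in the 4 fits that left out a hypoosmotic array, but in none of the 4 that left out a normoosmotic one (0.0556 to 0.0648).

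The actin-binding gene Tagln2 had a difference of 0.75 ± 0.21 (SE, limma adjusted p = 0.0599), with 0.96 and an adjusted p of 0.00972 without hypoosmotic replicate 3. Tagln, a smooth muscle actin-binding gene, had one of 0.61 ± 0.19 (adjusted p = 0.0814, and 0.0280 without hypoosmotic replicate 4). Tpm1, a tropomyosin, had one of -0.36 ± 0.11 (adjusted p = 0.0658), and passed after median centring (0.0490). The number of SRF targets that passed was 2 without hypoosmotic replicate 3 or 4, and 0 without normoosmotic replicate 1, 2 or 4. Without normoosmotic replicate 3 it was 1, but the gene was Vcl (adjusted p = 0.0323, limma) and not Fhl2. Vcl was named after its value was seen. Actg1, an actin, and Srf, both named after their values were seen, were lowest on normoosmotic replicate 1 and highest on normoosmotic replicate 3. Their differences were 0.37 and 0.16 with all arrays. Without normoosmotic replicate 1 they were 0.13 and -0.075, and without normoosmotic replicate 3 they were 0.58 and 0.42.

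**Figure D4:**
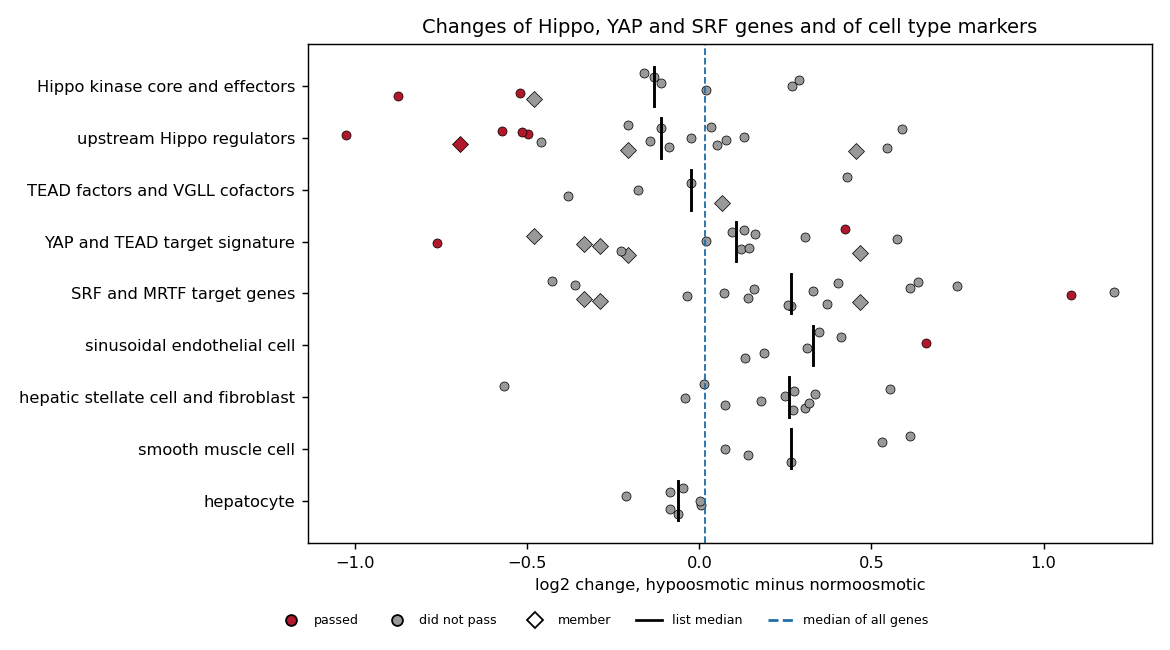
Change of every measured gene (horizontal axis, log2, hypoosmotic minus normoosmotic) in the 5 Hippo, YAP and SRF lists and in 4 lists of cell type markers. Diamonds are members, black bars list medians, and the dashed line the median of all genes (0.015). The 7 falls in the upper 2 lists reach -1.03, and the sinusoidal endothelial genes all lie to the right of 0.

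Several of these genes are known to be expressed by endothelial and mesenchymal cells as well as hepatocytes, so markers of liver cell types were read beside them. The counts in every marker list stand against the shares over all genes. Of all genes 2.45% rose, 4.62% fell and 20.5% had an unadjusted p smaller than 0.0489 (limma). Of 9 sinusoidal endothelial markers 6 were measured, all 6 had positive differences, 3 had an unadjusted p under 0.05 (limma) and 1 rose. This was Kdr, a VEGF receptor, at 7.51, 7.45, 7.86 and 7.29 in hypoosmotic livers, against 6.50, 6.94, 7.05 and 6.99 in normoosmotic livers (log2 change 0.66 ± 0.15 SE, limma adjusted p = 0.0280). Kdr passed in 2 of the 8 fits without 1 array (0.0254 to 0.0654, highest without normoosmotic replicate 1, and 0.0516 without hypoosmotic replicate 3). The summed linear intensity of the 6 was 1047 to 1502 in hypoosmotic livers and 908 to 1036 in normoosmotic livers, without overlap. Such sums weigh the brightest genes most, here Lyve1 and Fcgr2b, whose own groups overlapped (adjusted p = 0.167 and 0.349, limma). Of the 6 genes, 2 had higher hypoosmotic values without overlap, against 5.33% of all genes.

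The 5 smooth muscle markers summed to 432 to 484 in hypoosmotic livers and 289 to 413 in normoosmotic livers, with 5 positive differences and 0 passing (2 at an unadjusted p under 0.05, limma). Acta2, Tagln and Cnn1 of these markers are also in the SRF and MRTF list, so the lists are not separate readings. The 12 stellate cell and fibroblast markers summed to 778 to 1259.6 in hypoosmotic livers and 906 to 936 in normoosmotic livers, with 10 positive differences and 0 passing (3 at an unadjusted p under 0.05). In that list the matrix gene Dcn, singled out after its value was seen, was at 8.01, 8.01, 7.96 and 5.82 in hypoosmotic livers, against 7.09, 7.08, 7.13 and 7.23 in normoosmotic livers. Without hypoosmotic replicate 4 the difference of Dcn was 0.86 (adjusted p = 0.00438), against 0.32 (adjusted p = 0.753) with all arrays, and the hypoosmotic sums of the list were 1072 to 1259.6, above the normoosmotic ones. The 7 hepatocyte markers, albumin and transthyretin among them, summed to 31738 to 32943 in hypoosmotic livers and 32794 to 34428 in normoosmotic livers, and 0 passed (0 at an unadjusted p under 0.05). The hepatocyte sums overlapped. Albumin, which defines hepatocytes, was at 12.95 to 13.08 in hypoosmotic livers and 13.07 to 13.16 in normoosmotic livers.

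Of 8 Kupffer cell markers 0 passed, and they summed to 569.75 to 1008 in hypoosmotic livers and 582 to 824 in normoosmotic livers. Of 5 measured cholangiocyte markers 0 passed, with sums of 126 to 169.75 in hypoosmotic livers and 125 to 149 in normoosmotic livers. Of 5 measured lymphocyte markers 0 passed, with sums of 78.0 to 122 in hypoosmotic livers and 79.1 to 93.6 in normoosmotic livers. None of these 3 lists had a gene at an unadjusted p under 0.05 (limma), and all 3 sums overlapped. The 3 measured mesothelial markers had positive differences, 2 at an unadjusted p under 0.05 and 0 passing, with sums of 105 to 139 in hypoosmotic livers and 61.8 to 126 in normoosmotic livers. The lymphocyte markers Cd3g, Ms4a1 and Nkg7, the cholangiocyte marker Cftr and the fibroblast marker Lum were near background. With 1 array left out, further markers passed, named here after their values were seen. Without hypoosmotic replicate 4 the endothelial marker Pecam1 and the smooth muscle marker Tagln were higher in hypoosmotic livers, and without hypoosmotic replicate 1 the smooth muscle marker Mylk was higher and the stellate cell marker Reln lower. Without normoosmotic replicate 1 the mesothelial marker Gpm6a was higher in hypoosmotic livers. The part of these cell types in the results above was not tested.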

How the data were processed

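The authors deposited a table of log2 intensities for 27596 probe sets on 8 arrays. RMA, Transcriptome Analysis Console 4.0 and Expression Console are named in the submitters' processing notes, without their order. RMA normally scales arrays to a common distribution, and a shift common to most genes is then lost; array medians were 3.92 to 4.05. The genome build of the probes is not given in the sources used here. The 4 arrays per group limit the precision.

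Gene names came from the platform annotation of 2016, with symbols updated by gene identifier. A single symbol was given to 15316 probe sets, several to 317 and none to 11963, and 14511 genes resulted.

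The test was lmFit and eBayes of limma 3.58.1 (R 4.3.3) with group as the only term, with two-sided p-values adjusted over all genes. Errors are limma standard errors, and levels are means ± SD (n = 4). The 10 members, 5 pathway lists and 8 marker lists, and the tests, were chosen with earlier results of these data known. The genes named were the members, the list genes that passed, the 4 smallest p-values of each list, relatives of members, and the 3 genes most like Frmd6. Taok3, Kdr, Dcn, Actg1, Srf, Vcl, Lyve1, Fcgr2b and 4 further markers were named after their values were seen.

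Alternatives were the replicate number as a block, array weights, robust variances with an intensity trend, quantile normalization, median centring, leaving out the 30% dimmest genes, other uses of probe sets, the omission of each array and a minimum fold of 1.2 (treat in limma). The fit was tested on simulated data. Upstream windows are RefSeq's, build GRCr8. The plots were drawn with matplotlib 3.10.9 in Python 3.11.15.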

Additional observations from a re-analysis of the deposited data

Results flagged for a closer look

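In 2 of 62 groups of 4 arrays examined, over the members and the list genes named, 1 array lay far from the other 3 by Dixon's criterion. Both were hypoosmotic replicate 4. F3 was at 6.40 there, where the other hypoosmotic arrays lay between 7.05 and 7.10. Dcn, which was singled out after its value was seen, was at 5.82, where the others lay between 7.96 and 8.01. Chance alone gives such a distance in about 1 in 20 groups.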

How the results depend on the processing

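Over 17 alternatives to the fit, and 1 more for Frmd6, the 31 single genes examined kept their sign wherever they were tested. Many of these fits could not alter a sign. The replicate block, the intensity trend, the omission of dim genes, the joint test of probe sets and the minimum fold leave a gene's change as it is. The mean of probe sets does so for genes with 1 probe set. Srf, which is not among the 31, changed sign without normoosmotic replicate 1. Of 527 single-gene values, 456 also kept their side of the threshold, 61 no longer passed and 10 newly passed. The number of genes that differed was 1026 and fell to 83 against a minimum fold of 1.2, and ranged from 468 to 1051 with 1 array left out. Among the members it was 1, and 0 against the minimum fold, with 0 to 2 when 1 array was left out. For the kinase core it was 2, with 1 under the replicate block, 0 against the minimum fold and 1 to 3 with 1 array left out. For upstream regulators it was 5, with 1 (Rassf1) against the minimum fold and 2 to 5 with 1 array left out. Under the replicate block it was also 5, but with 4 lower and 1 higher, as Strn3 no longer passed and Taok3 did. For the YAP and TEAD targets it was 2, with 1 (F3) after quantile normalization, after median centring, without the dimmest genes or with all probe sets tested together. It was 0 there against the minimum fold, and 0 to 3 with 1 array left out. For the SRF targets it was 1, with 2 under the replicate block, array weights, quantile normalization or median centring, 0 against the minimum fold and 0 to 2 with 1 array left out. The TEAD and VGLL list had 0 in every fit. Under the replicate block Mob1b (adjusted p = 0.0542, limma), Strn3 (0.0523) and Tgfb2 (0.0740) no longer passed, while Gadd45a (0.0327), Tagln2 (0.0351) and Taok3 (0.0270) did. No other gene of the 31 changed its call there. Same-numbered arrays had correlations of their deviations from group means of 0.01, 0.26, 0.12 and 0.06, and arrays of unlike number -0.21 to 0.15. Hypoosmotic replicates 2, 3 and 4 each correlated best with the normoosmotic array of the same number, and hypoosmotic replicate 1 with normoosmotic replicate 2. The labels give the numbers no meaning, and these values do not settle whether they pair samples, so the block stayed an alternative. Each array's median centring put 75.7% of all calls on the lower side, against 65.3% in the fit as reported. Ankrd1 and Tgfb2 lie close to background, which limits their changes.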
